A study of Mus musculus with 2 samples.

Results

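The TRAV13 family was represented by 432 of 6089 T cell receptor α (TCRα) clonotypes in the thymus library and by 797 of 9583 in the spleen library. A clonotype was taken as a member when its J gene was a TRAJ gene and the V gene listed first for it belonged to family 13, whichever copy that was (TRAV13, TRAV13D or TRAV13N). The 1229 members held 1199 different nucleotide sequences of the CDR3, the stretch across the V-J junction, because 30 sequences were found in both libraries.

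The libraries were made from iT cells, T cells regenerated in mice from embryonic stem cells, 1 library from thymus and 1 from spleen. The stem cells were of C57BL/6 background, carried CD45.2 and a doxycycline-inducible Runx1-p2a-Hoxa9 cassette in the Rosa26 locus, and were induced in culture to hematopoietic progenitors before transfer into sublethally irradiated B-NDG mice (CD45.1, 8 to 10 weeks old), which lack T, B and NK cells of their own. Each library came from 15000 sorted CD4 and CD8 single-positive cells, and whether cells of several mice were pooled was not stated. The sources describe the sort in different ways, since the methods list the naïve markers CD62L+ CD44- for the spleen gate alone while the text of the study calls the cells of both tissues naïve. If the gates differed, tissue and gate cannot be told apart. TCRα made up 918063 of 2700370 reads in thymus and 1820314 of 4585403 reads in spleen, and 3 reads corresponded to 0.000327% and 0.000165% of TCRα reads. With 1 library per tissue, no difference between thymus and spleen was tested. Intervals are Wilson 95% intervals and cover counting error only, because reads amplified without stated molecular identifiers are not independent molecules.

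A TCRα chain is made by joining 1 TRAV gene to 1 TRAJ gene, with trimming of both ends and addition of non-templated nucleotides at the junction. The locus allows repeated rounds, which tend to start with TRAV genes near the J cluster and the TRAJ genes facing them, and to proceed to more distant TRAV and to downstream TRAJ genes. Much of the mouse TRAV region consists of repeated blocks, and the letters D and N mark copies of a gene that lie in blocks farther from the J cluster than the unlettered copy. TRAV13 genes encode the CDR1 and CDR2 loops and the first residues of CDR3 of the receptors that use them.

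All 12 copies of the family were found in the annotation by name, on the plus strand of chromosome 14 (coordinates are of GRCm38, GENCODE). They ran from TRAV13D-1 (chr14:52851290-52851866), 1303 kb before the first TRAJ gene, to TRAV13-4-DV7 (chr14:53757356-53757921), 397 kb before it. The D copies lie farthest, then the N copies from chr14:53162399-53162910 (TRAV13N-1) to chr14:53362267-53364106 (TRAV13N-4), then the unlettered copies from TRAV13-1 (chr14:53545014-53545525). The coding end of each copy from the conserved cysteine codon is shown because it is what enters the CDR3. There were 3 versions among the 12 copies, and capitals mark the third codon, in which they differ most. The first belongs to TRAV13-1, the next to the subgroup 2 copies (TRAV13D-2, TRAV13N-2, TRAV13-2), and the last to the other 8 copies.
TRAV13-1: tgtgctTTGgaac
TRAV13-2: tgtgctATAgatc
TRAV13-4-DV7: tgtgctATGgaac
The third codon encodes leucine, isoleucine and methionine, respectively.

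The copies resembled each other closely. Over the 66 pairs, nucleotide identity from the start codon to the conserved cysteine ranged from 87.6% to 100%, with a median of 91.2%. TRAV13D-2 and TRAV13N-2 were identical over 324 nucleotides, and TRAV13D-1 differed from TRAV13N-1 at 1 nucleotide. In 51 thymus clonotypes (11.8%) and 117 spleen clonotypes (14.7%) several copies shared the top alignment score, in each case copies of this family. All 46 thymus and 104 spleen clonotypes named TRAV13D-2 were tied with TRAV13N-2, so each of these clonotypes may belong to either copy. The clonotypes named TRAV13N-2 had no tie. As the annotated sequences of the 2 copies are identical up to the cysteine and share the same coding end, clonotypes named TRAV13N-2 may also belong to either copy. Membership of the family did not depend on ties. TRAV13-3 is annotated as a pseudogene, and its reading frame from the start codon to the cysteine was shifted and contained a stop.

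One clonotype carried most of the reads of the family in thymus. It joined TRAV13-1 to TRAJ39 (chr14:54179962-54180024) and had 98095 reads in thymus and 30264 in spleen, the most of any member in each. Its junction kept 5 nucleotides of TRAV13-1, had lost 8 nucleotides of the V end and 6 of the J end, and contained 5 inserted nucleotides, all of them C, shown in capitals.
TRAV13-1/TRAJ39: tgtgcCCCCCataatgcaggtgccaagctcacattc
This clonotype made up 76.9% of the TRAV13 reads in thymus (76.6% to 77.1%) and 30.9% in spleen (30.6% to 31.2%). It had 104 times the reads of the next member in thymus (947 reads) and 12.1 times those of the next member in spleen (2504 reads). No other TCRα clonotype of either library lay 1 nucleotide from it. The remaining TRAV13-1 clonotypes joined to TRAJ39 were few. Of 3 such clonotypes in thymus, those other than the largest held 113 reads in all, and of 7 in spleen the others held 491 reads.

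The TRAV13 family held 13.9% of TCRα reads in thymus (13.8% to 14.0%) and 5.39% in spleen (5.35% to 5.42%). Without the largest clonotype, 29548 of 819968 reads remained in thymus, which was 3.60% (3.56% to 3.64%), and 67789 of 1790050 in spleen, which was 3.79% (3.76% to 3.82%). The gap in read share between the libraries was thus carried by 1 clonotype. By clonotypes, each counted once, the family made up 7.09% in thymus (6.48% to 7.77%) and 8.32% in spleen (7.78% to 8.89%), rank 5 among 21 and 22 TRAV families. By reads it ranked 3 in thymus and 9 once the largest clonotype was left out, and 7 in spleen in either case. The effective number of members (the exponential of the Shannon entropy of their reads) was 6.29 in thymus and 128 in spleen, and 272 and 457 without the largest clonotype.

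Apart from the largest clonotype, TRAV13 clonotypes were small. The median was 51 reads in thymus against 87 for clonotypes of other TRAV families, and 59 against 108 in spleen. Of the 16 TRAV families with at least 50 clonotypes, TRAV13 had the second lowest median in each library. This held among productive clonotypes (61 against 102 reads in thymus, 67.5 against 137 in spleen) and among non-productive ones (37 against 63, and 44 against 71). In thymus 72 members and in spleen 111 members had fewer than 10 reads. Whether primers or alignment differed in efficiency between families was not tested.

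All 12 copies were used in each library, and TRAV13-1 led. It was named for 121 clonotypes in thymus, or 28.0% of the family (24% to 32.4%), and for 197 in spleen, or 24.7% (21.8% to 27.8%). Its reads without the largest clonotype were 8475 in thymus (28.7% of the remaining TRAV13 reads) and 21245 in spleen (31.3%). This was close to its share of clonotypes in thymus and above the interval of that share in spleen. Going by the names, no other copy came near this share of clonotypes in either library. The clonotypes named TRAV13D-2 (46 in thymus, 104 in spleen) and TRAV13N-2 (37 and 69) may belong to either copy. Either of these copies could thus have a larger share than its name shows.

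Among the D copies, TRAV13D-2 had the most clonotypes, 46 in thymus (2137 reads) and 104 in spleen (5860 reads), which may include TRAV13N-2. TRAV13D-1 had 38 clonotypes (1898 reads) in thymus and 87 (6514 reads) in spleen. TRAV13D-3 had 24 (1614 reads) and 40 (3000 reads), and TRAV13D-4 had 21 (2162 reads) and 44 (4175 reads). Each D copy thus had more clonotypes and more reads in the larger spleen library.

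Among the N copies, TRAV13N-4 led in thymus with 53 clonotypes (3260 reads) and TRAV13N-2 in spleen with 69 (8621 reads). TRAV13N-4 had 62 clonotypes in spleen (5678 reads), and TRAV13N-2 had 37 in thymus (2749 reads). The clonotypes named TRAV13N-2 may include TRAV13D-2. TRAV13N-1 had 38 (4261 reads) in thymus and 55 (3323 reads) in spleen, so its reads were lower in the larger library. This copy supplied 3 of the 5 leading clonotypes of the family in thymus by reads. TRAV13N-3 had 17 (835 reads) and 21 (1603 reads).

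The unlettered copies other than TRAV13-1 were less used. TRAV13-2 had 20 clonotypes in thymus (1342 reads) and 48 in spleen (3890 reads). The pseudogene TRAV13-3 had 5 (187 reads) and 13 (568 reads), the fewest of any copy. TRAV13-4-DV7, whose name marks it as a gene also used with the TCRδ locus, had 12 (628 reads) in thymus and 57 (3312 reads) in spleen.

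The plot of copy use shows the pair of bars for each copy from the farthest to the nearest. In most copies the intervals of thymus and spleen overlapped. They did not for TRAV13-4-DV7, with 2.78% of members in thymus (1.60% to 4.79%) and 7.15% in spleen (5.56% to 9.15%), a copy picked out after its values were seen. For TRAV13N-4 the order was the opposite, with 12.3% in thymus (9.50% to 15.7%) and 7.78% in spleen (6.12% to 9.85%), and the intervals overlapped narrowly.

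**Figure D1:**
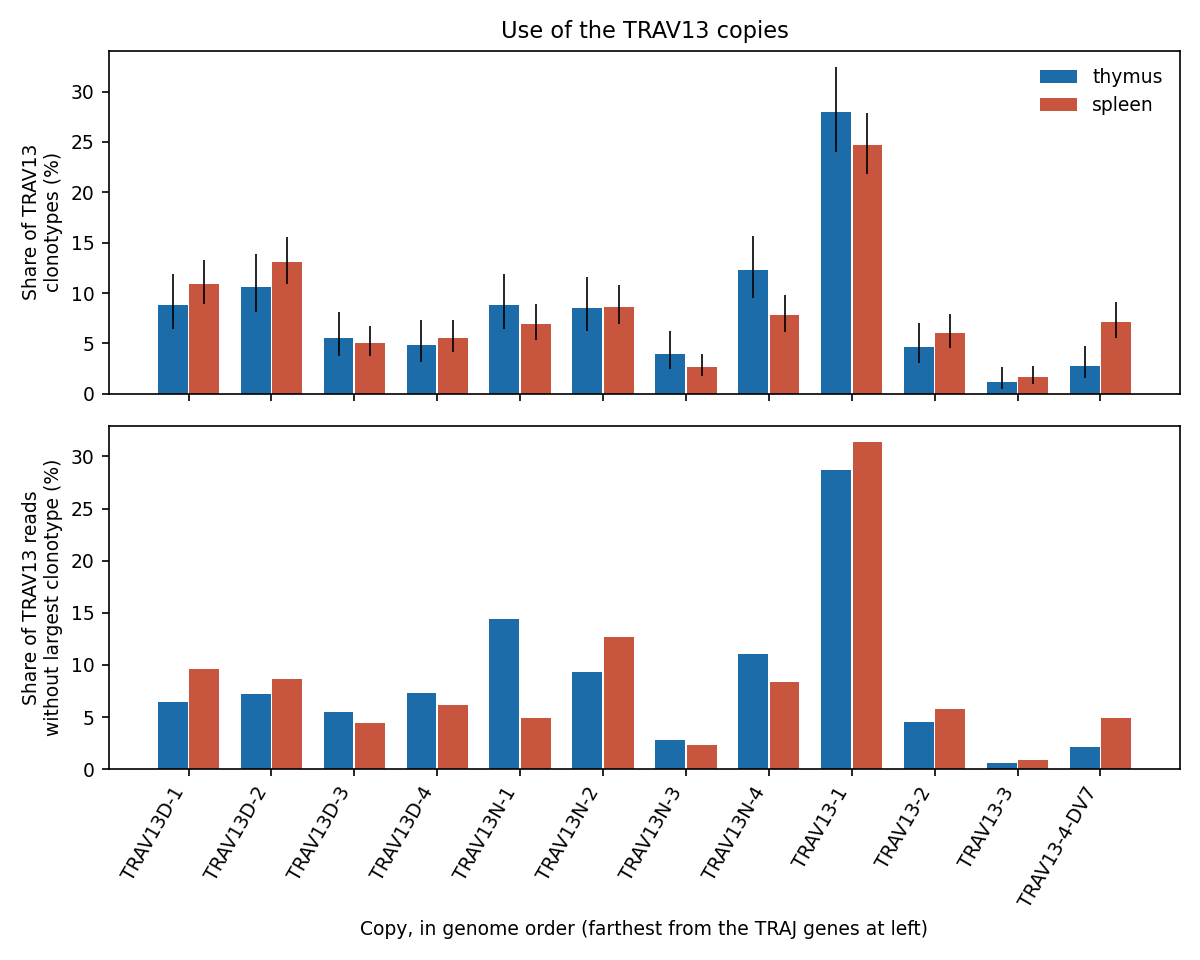
Use of the 12 TRAV13 copies, in genome order, in thymus (blue) and spleen (red). The upper panel gives each copy's share of TRAV13 clonotypes in percent with Wilson 95% intervals, and the lower panel its share of TRAV13 reads in percent without the largest clonotype. TRAV13-1 has the tallest bar in both panels, at 28.0% and 24.7% of clonotypes and 28.7% and 31.3% of reads.

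Most TRAV13 rearrangements were productive, that is in frame and without a stop codon in the CDR3. In thymus 313 of 432 were productive, or 72.5% (68.1% to 76.5%), against 74.9% of 5571 clonotypes of other TRAV families. In spleen 528 of 797 were productive, or 66.2% (62.9% to 69.4%), against 69.5% of 8629. The difference was -2.42 percentage points in thymus (-6.95 to 1.75) and -3.30 in spleen (-6.79 to 0.0485), and neither passed Fisher's exact test (two-sided, p = 0.275 and 0.0542, Benjamini-Hochberg adjusted over 6 tests 0.330 and 0.271). These tests compare clonotypes of 1 library and do not speak of tissues.

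The non-productive members were nearly all out of frame, 119 in thymus (27.5%) and 264 in spleen (33.1%). A stop codon in frame was found in 0 of 432 thymus members, which allows a share of up to 0.694% (here and for other counts of 0, the share that 3 counts of the total make up, not a Wilson limit), and in 5 spleen members (0.627%). Productive members held 95.7% of TRAV13 reads in thymus and 84.5% in spleen, and 81.5% and 77.6% without the largest clonotype. By reads the productive share was thus higher than by clonotypes also without that clonotype.

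The copies of subgroup 3 stood below the rest. In thymus 16 of 46 clonotypes of TRAV13D-3, TRAV13N-3 and TRAV13-3 were productive, or 34.8% (22.7% to 49.2%), against 76.9% of the 386 clonotypes of the other copies (72.5% to 80.9%). In spleen 30 of 74 were productive, or 40.5% (30.1% to 51.9%), against 68.9% of 723 (65.4% to 72.1%). The intervals did not overlap in either library. The subgroup was chosen after these values were seen, so no test is given.

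The low share was not confined to clonotypes named for the annotated pseudogene. TRAV13D-3 (chr14:53032848-53033419) had 33.3% productive clonotypes in thymus (18.0% to 53.3%) and 30% in spleen (18.1% to 45.4%). TRAV13N-3 had 41.2% (21.6% to 64.0%) and 52.4% (32.4% to 71.7%). For TRAV13-3 the counts were 1 of 5 and 7 of 13, and their productive call rests on the CDR3 alone. The TRAV13D-3 gene is annotated as functional and is 99.7% identical to both TRAV13N-3 and TRAV13-3. It differs from TRAV13-3 by a gap of 1 nucleotide alone. Names within the subgroup are therefore uncertain, and clonotypes of the pseudogene may be among those named for the other copies.

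Among the better filled copies, TRAV13-1 was productive in 81% of its thymus clonotypes (73.1% to 87%) and in 74.1% of those in spleen (67.6% to 79.7%). TRAV13N-2 reached 89.2% in thymus (75.3% to 95.7%) and 63.8% in spleen (52.0% to 74.1%), with intervals that did not overlap. Clonotypes of that name may include TRAV13D-2. The remaining copies outside subgroup 3 lay between 61.3% and 80%, as the plot of productive shares shows.

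**Figure D2:**
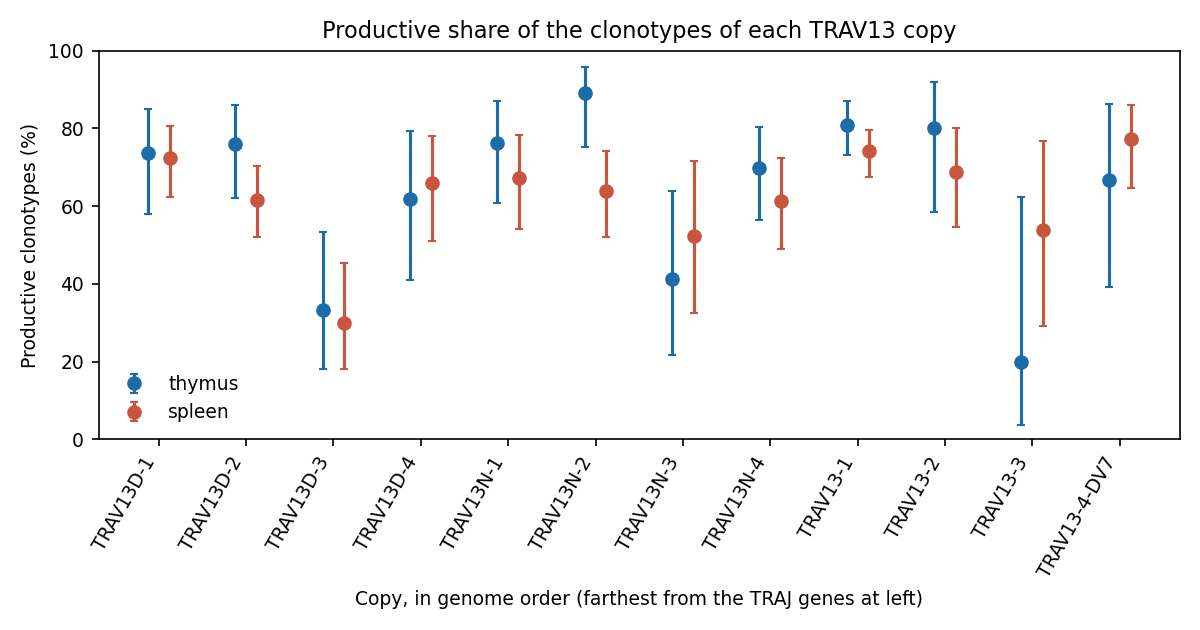
Productive share in percent of the clonotypes of each TRAV13 copy, in genome order, in thymus (blue) and spleen (red), with Wilson 95% intervals. The points of TRAV13D-3 lie at 33.3% and 30%, and those of TRAV13N-3 and TRAV13-3 between 20% and 53.8%, below the other copies.

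TRAV13 genes joined TRAJ genes over the length of the J cluster, 43 of them in thymus and 45 in spleen. The members formed 213 V-J pairs in thymus, of which 116 were seen in 1 clonotype, and 297 in spleen, of which 124 were. The partners with most clonotypes in thymus were TRAJ27 (27 clonotypes, 6.25%), TRAJ34 and TRAJ37 (25 each, 5.79%). In spleen they were TRAJ31 (52, 6.52%), TRAJ34 (45, 5.65%) and TRAJ26 (40, 5.02%). No single partner stood out, as the leading one in each library joined fewer than 1 in 10 members.

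By reads without the largest clonotype, the leading partners in thymus were TRAJ37 (2421 reads), TRAJ27 (2258) and TRAJ42 (1704), and in spleen TRAJ34 (5709), TRAJ31 (5419) and TRAJ48 (4602). The rank of TRAJ42 and of TRAJ48 came largely from 1 clonotype each, of 947 and 2504 reads. TRAJ34 (chr14:54184699-54184756) was among the leading partners by clonotypes in both libraries. In spleen it joined 5.65% of members (4.25% to 7.47%) against 3.37% of clonotypes of other TRAV families (3.01% to 3.77%). In thymus the shares were 5.79% (3.95% to 8.4%) and 4.16% (3.67% to 4.72%). These differences were not tested. TRAJ34 was named for its count in these members, which favors a high share. Partners not named here differed in both directions. In spleen TRAJ50 joined 2.01% of members against 0.858% of the others, and TRAJ56 0.251% against 1.22%.

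For position along the J cluster, TRAJ genes were divided into TRAJ45 and those upstream of it, TRAJ24 to TRAJ44, and TRAJ23 and those downstream, where upstream means nearer to the V genes (TRAJ45 lies at chr14:54172828-54172890 and TRAJ23 at chr14:54196081-54196140). The upstream group was joined by 55 members in thymus, 12.7% (9.91% to 16.2%), against 14.1% of other TRAV clonotypes, and by 98 members in spleen, 12.3% (10.2% to 14.8%), against 14.3%. The difference was -1.36 percentage points in thymus (-4.33 to 2.23) and -1.97 in spleen (-4.20 to 0.596), and neither passed Fisher's exact test (p = 0.472 and 0.136, adjusted 0.472 and 0.271). As a whole the family was therefore not shown to differ from the others in this respect.

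Within the family, the sets of copies joined the TRAJ groups in unlike shares. The unlettered copies, nearest to the J cluster, joined the upstream group in 20.9% of their 158 thymus clonotypes (15.3% to 27.9%) and in 20% of 315 in spleen (16.0% to 24.8%). The N copies did so in 5.52% of 145 (2.82% to 10.5%) and 3.38% of 207 (1.65% to 6.81%). The D copies, although farther away, did so in 10.9% of 129 (6.58% to 17.4%) and 10.2% of 275 (7.14% to 14.3%). In spleen none of the 3 intervals overlapped, and in thymus that of the D copies overlapped both others.

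At the other end of the J cluster the order was reversed. TRAJ23 and downstream genes were joined by 15.8% of the unlettered clonotypes in thymus (11.0% to 22.3%) and 19.4% in spleen (15.4% to 24.1%). The N copies joined them in 49.0% (41.0% to 57.0%) and 58.5% (51.6% to 65.0%), and the D copies in 45% (36.6% to 53.6%) and 39.6% (34.0% to 45.5%). The median TRAJ number (higher numbers lie upstream) was 36 for the unlettered, 24 for the N and 27 for the D copies in thymus, and 34, 22 and 27 in spleen.

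Because the clonotypes named TRAV13D-2 may belong to TRAV13N-2, the sets were also described without tied clonotypes, a choice made after seeing the data. This removed every TRAV13D-2 clonotype and left TRAV13D-1, TRAV13D-3 and TRAV13D-4 as the D set. The D set then joined upstream TRAJ genes in 13.9% of 79 thymus clonotypes and 10.6% of 161 spleen clonotypes, and the N set in 4.86% of 144 and 3.38% of 207. The upstream order of the sets thus stayed as it was. The clonotypes named TRAV13N-2, which had no tie, were kept in the N set, although some may belong to TRAV13D-2. The share of D clonotypes joined to TRAJ23 and downstream genes fell from 45% to 30.4% in thymus and from 39.6% to 32.3% in spleen.

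In the other TRAV families that have D or N copies, the order of D and N was different. Their D copies joined the upstream group in 6.33% of 1928 thymus clonotypes (5.33% to 7.50%) and 7.85% of 3107 in spleen (6.96% to 8.85%). Their N copies did so in 10.4% of 1140 (8.71% to 12.3%) and 14.1% of 1956 (12.6% to 15.7%), and their unlettered copies in 19.6% and 15.2%. The N copies of TRAV13 thus lay below those of the other families, with intervals that did not overlap in spleen, and the difference was not tested.

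**Figure D3:**
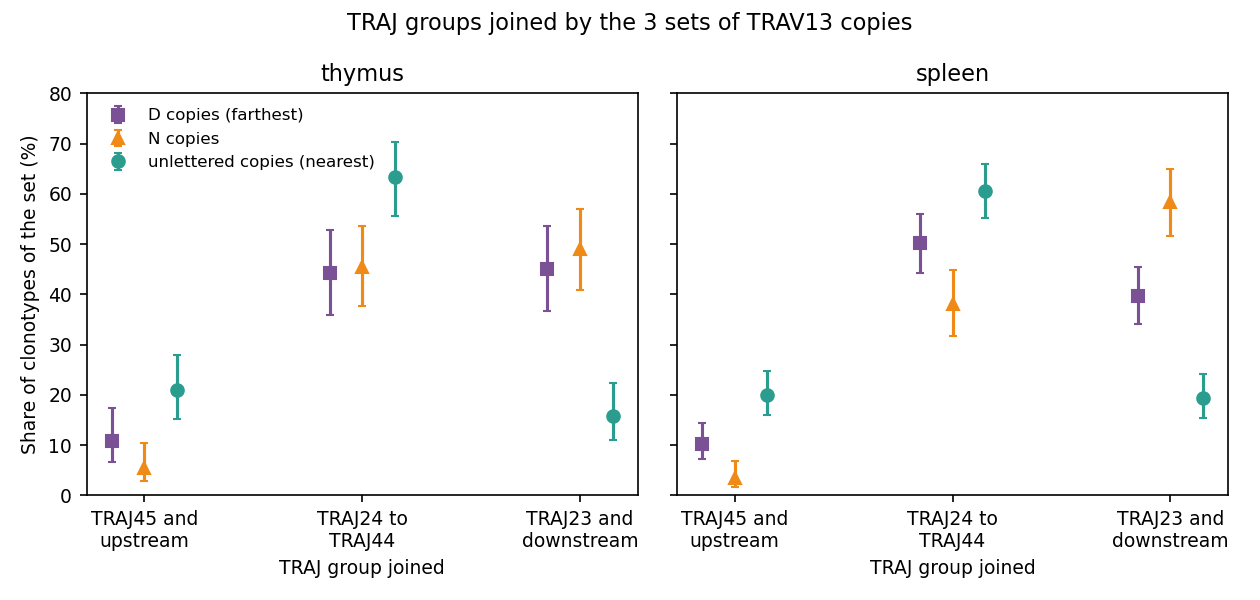
Share in percent of the clonotypes of each set of TRAV13 copies joined to each TRAJ group, in thymus (left) and spleen (right), with Wilson 95% intervals. Purple squares are D copies, orange triangles N copies and green circles unlettered copies. The unlettered copies are highest for TRAJ45 and upstream (20.9% and 20%) and lowest for TRAJ23 and downstream (15.8% and 19.4%).

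Single copies varied within these sets. In spleen TRAV13-4-DV7, the nearest copy, joined upstream TRAJ genes in 24 of 57 clonotypes (42.1%), TRAV13-3 in 7 of 13 (53.8%), TRAV13-2 in 15 of 48 (31.2%) and TRAV13-1, the farthest of the unlettered copies, in 17 of 197 (8.63%). In thymus TRAV13-1 did so in 23 of 121 clonotypes (19.0%), TRAV13-2 in 6 of 20 (30%), TRAV13-3 in 2 of 5 and TRAV13-4-DV7 in 2 of 12. The observed shares of the unlettered copies did not follow distance strictly, as TRAV13-3, which lies farther than TRAV13-4-DV7, had the highest in both libraries. TRAV13-3 had few clonotypes and its name is uncertain, so the order of these copies is not established. TRAV13N-4 had 0 such clonotypes of 62 in spleen, which allows a share of up to 4.84%, and 3 of 53 in thymus (5.66%). TRAV13N-2 had 0 of 37 in thymus, which allows up to 8.11%, and 5 of 69 in spleen (7.25%).

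By reads, the N copies in spleen joined the upstream group in 15.1% of their reads. This came from 1 clonotype, TRAV13N-2 joined to TRAJ48, with 2504 of 2904 such reads. Without it the share was 2.39%, close to the 3.38% by clonotypes.

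Productive TRAV13 CDR3s averaged 39.6 nucleotides in thymus (SD 7.48, n = 313 clonotypes) against 40.7 in other TRAV families (SD 4.57), and 39.1 in spleen (SD 3.89, n = 528) against 40.7 (SD 4.88). A CDR3 of 13 codons was the most common, in 33.9% of productive members in thymus and 36.4% in spleen. In spleen 13 codons were found in 27.9% of other TRAV clonotypes (26.7% to 29.0%), outside the interval of the family (32.4% to 40.6%). CDR3s of 11 codons made up 9.09% of productive members in spleen (6.93% to 11.8%) against 4.90% (4.38% to 5.47%), and those of 15 codons 8.71% (6.60% to 11.4%) against 14.8% (14.0% to 15.8%). The spleen CDR3s of the family were thus shifted to shorter lengths, with a median of 39 nucleotides against 42, while both medians were 39 in thymus. The differences in length were not tested.

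The first residues mostly came from the germline. In thymus 98 productive members (31.3%) began with cysteine, alanine and methionine, 85 (27.2%) with leucine in the third place and 78 (24.9%) with isoleucine. In spleen the numbers were 184 (34.8%), 123 (23.3%) and 135 (25.6%). Leucine followed TRAV13-1, which supplied 80 of the 85 in thymus and 120 of the 123 in spleen. Proline in the third place, as in the largest clonotype, was found in 19 members in thymus (6.07%) and 18 in spleen (3.41%).

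Copies differed in how often the germline start was kept. TRAV13-1 kept it in 81.6% of productive clonotypes in thymus (72.8% to 88.0%) and 82.2% in spleen (75.2% to 87.6%). TRAV13D-4 (chr14:53072763-53073274) kept it in 5 of 13 in thymus (38.5%) and 12 of 29 in spleen (41.4%, 25.5% to 59.3%), the lowest of the copies with at least 10 productive clonotypes in each library. In spleen the interval of TRAV13D-4 lay below that of TRAV13-1.

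The mean number of nucleotides trimmed from the V end was higher than in other families in both libraries, and that from the J end was slightly lower. A mean of 2.74 nucleotides (SD 2.68) were missing from the V end of productive members in thymus against 2.07 (SD 2.33) in other TRAV clonotypes, and 2.55 (SD 2.57) against 2.0 (SD 2.29) in spleen. The J end lacked 2.72 against 2.75 in thymus and 2.45 against 2.67 in spleen. V ends were untrimmed in 32.3% of productive members in thymus (27.3% to 37.6%) against 38.6% (37.1% to 40.1%), and in 34.3% in spleen (30.4% to 38.4%) against 40.0% (38.8% to 41.2%). J ends were untrimmed in 33.2% of productive members in thymus (28.2% to 38.6%) against 27.9% (26.6% to 29.3%), and in 37.1% in spleen (33.1% to 41.3%) against 30.1% (29.0% to 31.3%). In spleen the intervals of the family and of the others did not overlap at either end. These differences were not tested.

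Junctions without any inserted nucleotide made up 88 of 313 productive members in thymus, 28.1% (23.4% to 33.3%), and 230 of 528 in spleen, 43.6% (39.4% to 47.8%). In other TRAV families the shares were 32.2% and 40.5%. The difference was -4.04 percentage points in thymus (-8.94 to 1.37) and 3.07 in spleen (-1.28 to 7.50), and neither passed Fisher's exact test (p = 0.148 and 0.180, adjusted 0.271 for both). The median number of inserted nucleotides was 2 in thymus and 1 in spleen, as in the other families.

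Counted by reads, junctions without insertion held 5.20% of productive TRAV13 reads in thymus and 32.5% in spleen, and 26.4% and 51.2% without the largest clonotype, which has 5 inserted nucleotides. In 60 productive members in thymus (19.2%) and 152 in spleen (28.8%) the aligned V and J ends overlapped, so that 1 or more nucleotides could have come from either gene. These are counted among the junctions without insertion. Long insertions were rare, with more than 10 nucleotides in 3 members of each library, of which the longest had 73 in thymus and 14 in spleen.

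**Figure D4:**
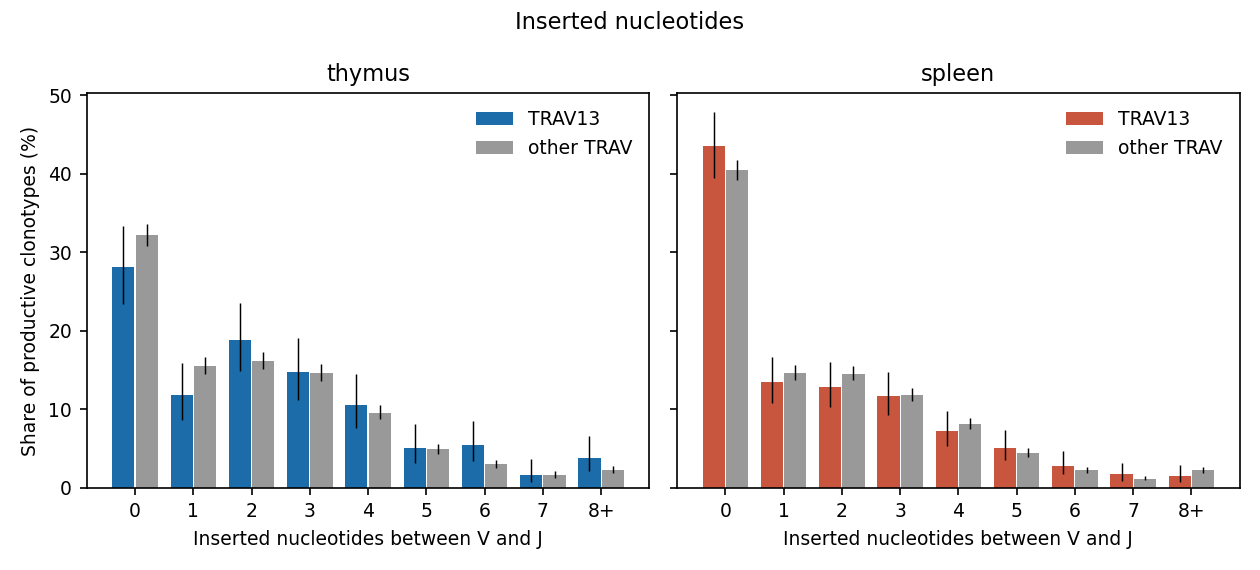
Inserted nucleotides between the aligned V and J ends of productive clonotypes, as a share in percent of TRAV13 (colored) and other TRAV clonotypes (grey), in thymus (left) and spleen (right), with Wilson 95% intervals. At 0 inserted nucleotides the TRAV13 bar is at 28.1% in thymus and 43.6% in spleen, beside 32.2% and 40.5% for the other families.

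The leading clonotypes after the largest show the range of junctions. Shown are 3 of the next 4 in thymus and all of the next 5 in spleen, since 2 clonotypes were tied at 730 reads there. Capitals mark inserted nucleotides, meaning those between the aligned V and J ends, and a sequence without capitals has none. The V part of TRAV13-1/TRAJ31 was aligned over 14 nucleotides, past the 13 of the coding end given above. A nucleotide aligned past that end is not counted as inserted.
TRAV13N-1/TRAJ42: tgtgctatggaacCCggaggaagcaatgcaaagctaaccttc
TRAV13N-1/TRAJ32: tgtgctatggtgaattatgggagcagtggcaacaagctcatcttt
TRAV13N-1/TRAJ22: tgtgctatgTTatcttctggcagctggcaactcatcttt
TRAV13N-2/TRAJ48: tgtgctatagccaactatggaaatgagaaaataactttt
TRAV13D-1/TRAJ24: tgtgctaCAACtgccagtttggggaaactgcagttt
TRAV13-1/TRAJ21: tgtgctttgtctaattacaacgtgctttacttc
TRAV13-1/TRAJ34: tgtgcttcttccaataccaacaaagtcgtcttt
TRAV13-1/TRAJ31: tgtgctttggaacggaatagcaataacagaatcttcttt
The first 3 had 947, 453 and 414 reads in thymus. The other 5 had 2504, 1284, 1186, 730 and 730 reads in spleen. Of the 5 from spleen, 4 had no inserted nucleotide, and of the 3 from thymus 1 had none. The third clonotype of thymus by reads, with 588, was named TRAV13D-4 joined to TRAJ37 but had a CDR3 of 12 nucleotides over which no V gene was aligned and which lacked the conserved cysteine, so its productive call is doubtful. The TRAV13N-1/TRAJ42 clonotype was also found in spleen, with 110 reads.

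Several members encoded the same CDR3 protein by different nucleotides. In thymus 10 proteins were reached by more than 1 sequence, accounting for 21 of 313 productive clonotypes (6.71%), and in spleen 35 proteins, accounting for 73 of 528 (13.8%). The share in other TRAV families was not computed, and such counts depend on the number of members, which was larger in spleen. The sequences below are those of the protein with most sequences in each library, TRAV13-1 joined to TRAJ26 in thymus and TRAV13D-1 or TRAV13N-1 joined to TRAJ31 in spleen. Capitals mark inserted nucleotides. In all sequences but spleen b the aligned V part runs past the coding end given above, and those nucleotides are not counted as inserted.
thymus a: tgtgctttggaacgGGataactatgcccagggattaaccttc
thymus b: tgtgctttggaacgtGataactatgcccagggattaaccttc
thymus c: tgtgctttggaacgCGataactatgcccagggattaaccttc
spleen a: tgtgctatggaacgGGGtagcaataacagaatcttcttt
spleen b: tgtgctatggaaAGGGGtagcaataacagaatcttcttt
spleen c: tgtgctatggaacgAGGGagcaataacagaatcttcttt
spleen d: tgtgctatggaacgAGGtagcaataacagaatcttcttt
The 3 in thymus had 100, 57 and 38 reads and differed in the junction alone. The 4 in spleen had 237, 98, 47 and 46 reads. A further spleen protein, TRAV13-1 joined to TRAJ23, was reached by 3 sequences with 135, 127 and 75 reads. In thymus, sequences for 1 protein were less even in 2 further cases, TRAV13-2 joined to TRAJ43 with 178 and 11 reads and TRAV13-1 joined to TRAJ28 with 171 and 14 reads. The TRAJ28 sequences had the same junction and differed at 1 nucleotide inside the J part. Their reads were below the ratio of 20 set for merging. They may thus be 1 rearrangement with a read error, which was not tested. Another spleen protein was that of TRAV13D-1/TRAJ24 shown above with 1284 reads, which was reached by a second sequence of 238 reads named TRAV13N-1.

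Of the members, 30 were found in both libraries by identical CDR3 nucleotides, 6.94% of the thymus members (4.91% to 9.74%) and 3.76% of the spleen members (2.65% to 5.32%). All 30 had the same J gene in both libraries. The same copy was named for 21 of them, and of the other 9 a copy of the same subgroup was named for 6. Of the 30, 25 were productive. Several had only 1 or 2 reads in 1 library, under the 3 reads taken as the smallest detectable count. An example is a TRAV13-1/TRAJ23 clonotype with 170 reads in thymus and 1 in spleen. The number of shared members rests in part on such counts.

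The share found in both libraries was compared with that of other TRAV clonotypes by accepting any V name in the second library. It was then 7.41% of thymus members (5.30% to 10.3%) against 11.8% (11.0% to 12.6%), and 4.27% of spleen members (3.07% to 5.90%) against 7.58% (7.04% to 8.16%). The intervals did not overlap, and the difference was not tested. The lower median reads of TRAV13 clonotypes, given above, moved with it, and their part in it was not tested.

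The shared clonotypes held 79.5% of TRAV13 reads in thymus and 33.9% in spleen, but 11.5% and 4.32% without the largest. Of the 30, 17 had more reads in thymus and 13 in spleen, and 11 had fewer than 10 reads in one of the libraries. These are raw reads, not scaled to the 918063 TCRα reads of thymus and 1820314 of spleen, so the split depends on depth. The largest was the only member among the 50 with most reads in both. Junctions without insertion made up 14 of the 25 productive shared members, 56.0% (37.1% to 73.3%), against 25.7% of the unshared productive members in thymus (21.0% to 31.0%) and 42.9% in spleen (38.7% to 47.3%). At the protein level, 35 CDR3 proteins were found in both, 11.6% of 302 in thymus and 7.14% of 490 in spleen.

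**Figure D5:**
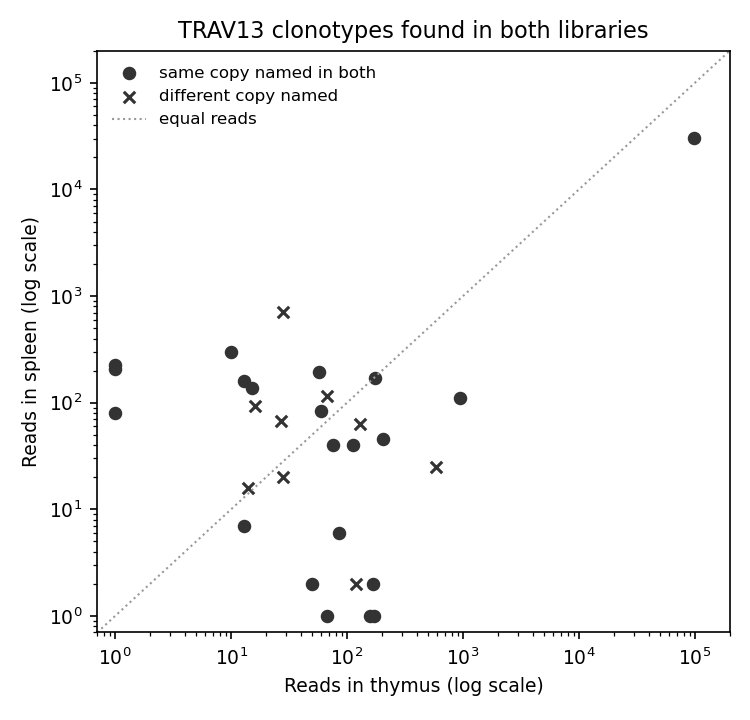
Reads in thymus against reads in spleen, both on log scales, for the 30 TRAV13 clonotypes found in both libraries. Circles mark clonotypes named with the same copy in both, crosses those with different copies, and the dotted line equal raw reads, not scaled to library size. The largest clonotype stands alone at 98095 and 30264 reads, and 17 of the 30 lie below the line.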

How the data were processed

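TCR libraries had been prepared with a SMARTer mouse TCR a/b kit and sequenced on a MiSeq. The authors assembled reads into clonotypes by CDR3 with MiXCR and deposited the raw read count of each clonotype with its V, D, J and C genes, aligned ends and CDR3. The build of its gene library is not given in the sources used here. Clonotypes from several V copies with 1 CDR3 are merged by this step, and V names of near-identical copies are uncertain.

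From these counts, TCRα clonotypes were taken by a TRAJ gene listed first, and members by V family 13. A productive clonotype had a CDR3 without frameshift or stop. Insertions are nucleotides between the aligned V and J ends. Where the V alignment ran past the coding end of the gene, the extra nucleotides were not counted as inserted. Coordinates were matched by gene name to GENCODE on GRCm38, and copies were aligned with Biopython 1.88. Shares have Wilson 95% intervals, counts of 0 a limit of 3 counts of the total, and differences Newcombe intervals. TRAV13 and other TRAV clonotypes of 1 library were compared by Fisher's exact test (two-sided, scipy 1.17.1, adjusted over 6 tests). There was 1 library per tissue, of 918063 and 1820314 TCRα reads, so no test was made between tissues and no replicate error is known. Merging of clonotypes 1 nucleotide from another with at least 20 times the reads was tested on simulated data. Alternatives were a minimum of 2 or 10 reads, tied V genes, merging, productive clonotypes, the largest clonotype left out, equal reads and weighting by reads.

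Named were every copy, the 3 TRAJ partners with most clonotypes and reads, the 5 clonotypes with most reads and the 3 CDR3 proteins with most nucleotide sequences per library, of which those that matter are given, and members among the top 50 of both. Members, groups and lists were chosen with earlier results of these data known. Python 3.11.15, pandas 2.3.3, numpy 2.4.6 and matplotlib 3.10.9 were used.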

Additional observations from a re-analysis of the deposited data

Results flagged for a closer look

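The share of productive junctions without insertion differed from that of other TRAV families in opposite directions in the libraries, by -4.04 percentage points in thymus and 3.07 in spleen. Neither difference passed its own test, the difference between the libraries was not tested, and no cause was tested.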

How the results depend on the processing

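Of 100 values recomputed under alternatives, 89 were labeled unchanged, 8 moved and 3 reversed. Unchanged meant the same direction and side of the threshold, or a value within its interval. For clonotype numbers it meant staying within a set ratio of the main number. Part of this was fixed in advance. No member was tied across families, so leaving such ties out removed none. Accepting any top-scored gene of family 13 gave the main values again. Equal reads could not change the thymus number, as thymus was the smaller library. Weighted by reads, the productive difference from other TRAV families became 12.7 percentage points in thymus, the insertion difference -30.5 in thymus and -24.6 in spleen, and the difference in joins to upstream TRAJ genes -10.0 in thymus. Weighting by reads gives 1 clonotype 76.9% of the TRAV13 reads in thymus and 30.9% in spleen. The weighted differences were not recomputed without it, so its part in them was not tested. Without the largest clonotype the share of TCRα reads was 3.60% in thymus and 3.79% in spleen. Among productive clonotypes only, it was 15.7% and 5.31%, and spleen had 528 members. At a minimum of 10 reads the share of clonotypes in spleen was 7.72%, for which the cause was not tested. With subgroup 3 left out, chosen after seeing the data, the productive difference in thymus was 2.07 points (Fisher's exact test, adjusted p = 0.474). No difference passed the threshold under any alternative with a test, with adjusted p from Fisher's exact test between 0.226 and 0.899. No paired analysis was possible because there was 1 library per tissue. No replicate could be left out. At the TCRα reads of the thymus library, the expected number of spleen members was 777.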

Other observations

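In spleen, TRAV13N-3 was also listed in a clonotype joined to TRDJ1, a J gene of the TCRδ locus that lies between the TRAV and TRAJ genes, with 2 reads, which is under the 3 reads taken as the smallest detectable count. No such clonotype was listed in thymus.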
